A study of Mus musculus with 24 samples.

Results

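Cardiac bodies were compared with embryonic bodies, the last step of a mouse embryonic stem cell differentiation towards heart muscle. The comparison used 4 of the 12 RNA samples of the series, chosen by their titles. They were 2 arrays of cardiac bodies (CB, day 14 of culture) and 2 arrays of embryonic bodies (EB, day 7 of culture). Both groups were grown from mouse ES cells in DMEM-based medium with serum, and neither the cell line nor any added factor is given in the sources used here. An embryonic body is an aggregate in which ES cells differentiate into many lineages at once, and a cardiac body is an aggregate taken further along the cardiac path, so both are mixtures of cells. The other 8 samples were ES cells (day 0) and whole hearts at E17.5, P1 and in adults, with 2 arrays each. They entered the fit for its estimate of the spread, and their levels are given where they help to place CB and EB. Every RNA was hybridised to a mouse gene array whose probes cover most exons, and the values were deposited once per gene and once per probe set (usually 1 exon or part of one).

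Heart muscle cells form from mesoderm that leaves the primitive streak under Nodal, BMP, Wnt and FGF signals. Progenitors that carry Isl1 or Nkx2-5 then stop migrating, assemble sarcomeres and a calcium store, and change their fuel from mainly glucose towards fatty acids. The embryonic heart wall is at first separated from its endothelial lining by a jelly rich in hyaluronan, which is lost as the muscle matures. The cardiac transcription factors SRF, MEF2, GATA4 and TEAD bind short DNA motifs in the promoters of contractile genes.

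Values are log2 signals, so that a difference of 1 is a 2-fold difference. A change is CB minus EB ± the standard error of the fit (n = 2 arrays per group). That error pools the spread within all 6 groups, and is not the spread of the CB and EB arrays alone. "Rose" and "fell" are used for an adjusted p (limma, Benjamini-Hochberg over 19920 genes) under 0.05. By that rule 1085 genes (5.45%) rose and 1280 genes (6.43%) fell in CB, 11.9% in all, and 672 of the rises and 685 of the falls were at least 2-fold. The arrays of CB and EB did not overlap for 10412 genes (52.3%), so that lack of overlap alone says little with 2 arrays each. Counts of gene lists are to be read against these shares, and a list's median change against the median of all genes, -0.01. The labels do not say whether the arrays of a group came from separate cultures, and in a mixture of cells, more cells of a type and more RNA per cell cannot be told apart. The signals were not tested against background.

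The 2 EB arrays differed from each other more than the 2 CB arrays did. They differed by more than 1 in 548 genes, against 144 genes for the CB arrays, and Pearson's r over all genes was 0.983 for the EB pair and 0.990 for the CB pair. The genes were not spread evenly over the lists. EB replicate 1 was higher than EB replicate 2 by more than 1 in 9 of 12 red cell genes, 9 of 29 endoderm genes, 9 of 25 fibroblast and epicardium genes and 11 of 37 Hox genes. EB replicate 2 was the higher one by that margin in 8 of 27 endothelial genes and 7 of 21 chamber genes. Between the CB arrays, replicate 1 was higher by more than 1 in 4 of 25 calcium handling genes and in 5 of 25 ion channel genes, and replicate 2 in none of them. Results that changed when 1 array was left out are given with that array.

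**Figure D1:**
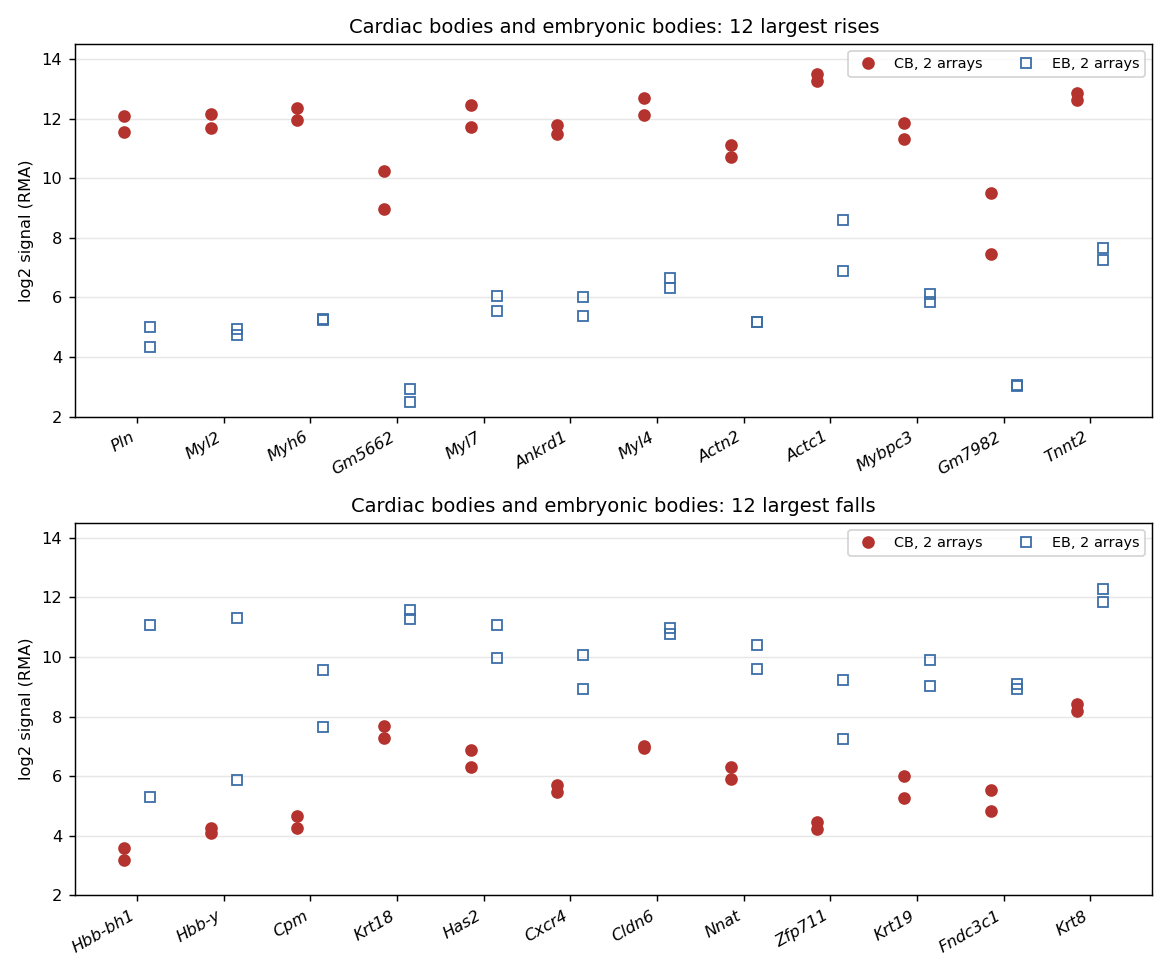
Log2 signal (vertical axis) of the 12 genes with the largest rise and the 12 with the largest fall in every array, CB as filled circles left of EB as open squares. Both CB arrays lie apart from both EB arrays in all 24 genes, and the 2 EB arrays of Hbb-bh1 and Hbb-y lie furthest from each other.

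Genes of the contractile apparatus had the largest share of rises among the lists. The cardiac body label was checked against heart muscle markers. The mean level of the sarcomere list was 9.81 and 9.34 in CB and 5.99 and 6.24 in EB, beside 10.37 to 11.02 in the whole hearts. Of 36 measured sarcomere genes, 31 (86.1%) rose and none fell, with a median change of 3.72. Ankrd1, a stretch-responsive partner of titin, measured 11.78 and 11.49 in the CB arrays and 5.36 and 6.0 in the EB arrays. It rose by 5.95 ± 0.33 (limma adjusted p = 3.1e-07). Myl7 and Myl4, the light chains of atrial and embryonic heart myosin, measured 12.46 and 11.72 (Myl7) and 12.67 and 12.12 (Myl4) in CB, against 5.55 and 6.05 (Myl7) and 6.30 and 6.66 (Myl4) in EB. Both lay far apart between the groups, with changes of 6.29 ± 1.22 for Myl7 and 5.92 ± 1.09 for Myl4. Actc1, the cardiac actin, measured 13.50 and 13.26 in CB, and 6.90 and 8.61 in EB, where the arrays differed by more than 1. Mybpc3, a myosin-binding protein of the A-band, rose by 5.62 ± 0.22, and Myom1, which links thick filaments at the M-band, by 4.48 ± 0.23. Mb, the oxygen-binding protein myoglobin, measured 10.94 and 10.47 in CB, and 6.27 and 6.21 in EB. Smyd1, a muscle methyltransferase needed for sarcomere assembly, rose by 4.0 ± 0.27. Of the 12 largest rises, 2 were of the predicted genes Gm5662 and Gm7982, for which no role is given here. Gm5662 measured 8.97 and 10.25 in CB, 2.93 and 2.5 in EB and 6.10 on average in ES cells, and Gm7982 measured 7.47 and 9.49 in CB, and 3.07 and 3.04 in EB.

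The promoters of 4 risers are shown because their 250 bases before the annotated start hold a motif of a cardiac factor. They are from RefSeq, build GRCm38.p6, on the strand of the gene, with the motif in capitals. The CArG box is the site of SRF, and CATTCC is the core of the TEAD site. In the Myl7 window (chr11:5898783-5899032, minus strand), the CArG box lies 61 to 52 and CATTCC 70 to 65 bases before the start. In the Actc1 window (chr2:114052876-114053125, minus strand), a CArG box lies 47 to 38 bases before it. The Mybpc3 window (chr2:91117894-91118143, plus strand) and the window of Pgam2, a muscle enzyme of glycolysis (chr11:5803797-5804046, minus strand), hold a MEF2 motif, 90 to 81 and 80 to 71 bases before the start.
Myl7 promoter: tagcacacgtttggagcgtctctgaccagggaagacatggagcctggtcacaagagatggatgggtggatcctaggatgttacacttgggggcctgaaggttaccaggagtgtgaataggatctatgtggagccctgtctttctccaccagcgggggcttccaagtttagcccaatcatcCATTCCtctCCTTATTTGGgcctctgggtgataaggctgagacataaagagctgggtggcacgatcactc
Actc1 promoter: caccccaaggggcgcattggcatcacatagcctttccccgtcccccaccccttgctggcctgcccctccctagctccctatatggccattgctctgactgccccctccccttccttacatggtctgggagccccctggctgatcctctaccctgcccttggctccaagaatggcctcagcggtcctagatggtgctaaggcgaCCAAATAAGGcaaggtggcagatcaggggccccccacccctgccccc
Mybpc3 promoter: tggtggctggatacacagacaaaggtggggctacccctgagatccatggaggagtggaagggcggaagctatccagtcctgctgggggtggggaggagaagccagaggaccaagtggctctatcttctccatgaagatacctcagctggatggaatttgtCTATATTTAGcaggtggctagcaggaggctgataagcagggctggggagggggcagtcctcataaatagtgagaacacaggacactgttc
Pgam2 promoter: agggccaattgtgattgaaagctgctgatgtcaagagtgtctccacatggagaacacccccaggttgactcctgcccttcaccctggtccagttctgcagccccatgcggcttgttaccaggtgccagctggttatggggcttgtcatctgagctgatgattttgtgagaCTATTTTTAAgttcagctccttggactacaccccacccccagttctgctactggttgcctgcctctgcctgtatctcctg

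Searched on both strands, a CArG box was present in 1.47% of all 32851 promoter windows, and in 6 of the 28 sarcomere genes that rose and have a window (Actc1, Ldb3, Myl3, Myl7, Myom1 and Nebl). The MEF2 motif was in 2.92% of all windows and in 4 of these 28 (Mybpc3, Myoz2, Synpo2l and Ttn). CATTCC was in 12.6% of all windows and in 8 of the 28, and the TATA box letters TATAAA in 12.4% of all windows and in 3 of the 28. Among 26 energy buffer and glycolysis genes that rose, 1 had a CArG box, 2 a MEF2 motif and 4 CATTCC. Among 34 Notch, Hedgehog and retinoid genes with a window, whatever their call, 1 had a CArG box, 0 a MEF2 motif and 7 CATTCC. The share of all windows counts windows (32851 for 27025 genes), while a listed gene counts when any of its windows matches. The shares are therefore unlike measures. A match describes these letters and is not a test of binding.

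Calcium handling and ion channel genes rose or were not called. Of 25 calcium handling genes, 16 (64.0%) rose and none fell, with a median change of 1.41. The largest change in this list, 7.15, lay above the largest in the sarcomere list, 7.08. Casq2, the calcium-binding protein of the heart's sarcoplasmic reticulum, measured 7.55 and 7.07 in CB, and 4.48 and 4.33 in EB, and rose by 2.90 ± 0.25. Casq1, its fast skeletal muscle counterpart, measured 9.11 and 7.71 in CB, and 4.55 and 4.82 in EB. Of 25 ion channel and conduction genes, 6 (24.0%) rose and none fell, with a median of 0.40. Popdc2 and Bves, cAMP-binding membrane proteins of the conduction system, rose by 5.20 ± 0.27 and 2.66 ± 0.36. Kcnj5, a subunit of the acetylcholine-gated potassium channel, measured 8.61 and 7.59 in CB, and 4.84 and 4.91 in EB. Kcnh2, the channel of the rapid delayed rectifier current, rose by 1.93 ± 0.25. Hcn4, the pacemaker channel, measured 7.62 and 6.15 in CB, and 5.37 and 5.20 in EB. Its CB arrays were apart by more than 1, and its rise of 1.60 ± 0.34 (limma adjusted p = 0.00822) was no longer called with only the 4 CB and EB arrays in the fit (0.0563). Gja1, the main gap junction protein of the ventricle, measured 9.49 and 9.79 in CB, and 10.12 and 10.40 in EB, and was not called.

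Chamber genes moved in both directions. Of 21 genes, 9 (42.9%) rose and 3 (14.3%) fell, with a median of 0.87. The falls numbered 1 without CB replicate 2 or with only the 4 CB and EB arrays, and 5 without EB replicate 1. Nppa, the atrial natriuretic peptide, measured 8.56 and 8.92 in CB, and 4.75 and 5.24 in EB, and rose by 3.74 ± 0.58. Its relative Nppb measured 5.36 and 5.95 in CB, and 3.79 and 5.73 in EB, where the groups overlapped. Bmp10, a ligand of the trabeculated wall, measured 4.65 and 4.32 in CB, and 4.27 and 4.63 in EB, and neither gene was called. Myl3, the ventricular essential light chain, rose by 4.67 ± 0.26. The Notch-responsive repressor Hey2, known in the compact ventricular wall, measured 5.12 and 4.79 in CB, and 6.25 and 7.56 in EB, and fell by 1.95 ± 0.32 on the log2 scale. Hey1 measured 5.70 and 5.49 in CB, and 6.53 and 8.16 in EB, and its fall of 1.74 ± 0.37 was not called without CB replicate 2 (limma adjusted p = 0.0681) or with the 4 arrays alone (0.0579).

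Cardiac transcription factors were called in both directions. Of 25 measured, 6 (24.0%) rose and 3 (12%) fell, and the rises numbered 10 without EB replicate 1. Isl1, the factor of second heart field progenitors, measured 6.13 and 6.14 in CB, and 7.69 and 8.73 in EB. It fell by 2.08 ± 0.27. Nkx2-5, which is present from progenitors to adult muscle, measured 8.89 and 8.22 in CB, and 7.21 and 7.01 in EB, and rose by 1.44 ± 0.25. Tbx5, a factor of the first heart field and the atria, measured 7.73 and 6.38 in CB, and 4.52 and 4.62 in EB. Irx4, a ventricular factor, rose by 2.51 ± 0.27 and Myocd, the coactivator of SRF, by 2.16 ± 0.21. Gata4 measured 8.15 and 7.86 in CB, and 8.19 and 7.09 in EB, and Hand2, a factor of the right ventricle, 8.05 and 7.21 in CB, and 7.39 and 7.15 in EB, so that neither separated the groups. Tbx20, required for chamber growth, measured 10.10 and 8.98 in CB, and 8.95 and 6.50 in EB, and missed the threshold (limma adjusted p = 0.0621).

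Hormone and G protein genes showed no common direction: 4 of 25 (16.0%) rose and 4 fell, with a median of 0.01. Adcy5, the adenylyl cyclase of heart muscle, measured 8.40 and 7.71 in CB, and 5.12 and 5.21 in EB. Rgs6, a brake on muscarinic signalling, rose by 2.65 ± 0.35, and Adm, the vasodilator peptide adrenomedullin, by 1.73 ± 0.25. Chrm2, the muscarinic receptor of the heart, measured 6.16 and 5.15 in CB, and 4.23 and 3.90 in EB, and its rise of 1.59 ± 0.39 was not called without CB replicate 1 (limma adjusted p = 0.204) or EB replicate 2 (0.10). Rgs5, a pericyte regulator of G proteins, measured 4.25 and 5.20 in CB, and 7.47 and 6.68 in EB, and fell by 2.35 ± 0.37. Aplnr, the apelin receptor of early heart progenitors and vessels, fell by 2.30 ± 0.35, and Pde5a, a cGMP phosphodiesterase, by 1.68 ± 0.25.

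**Figure D2:**
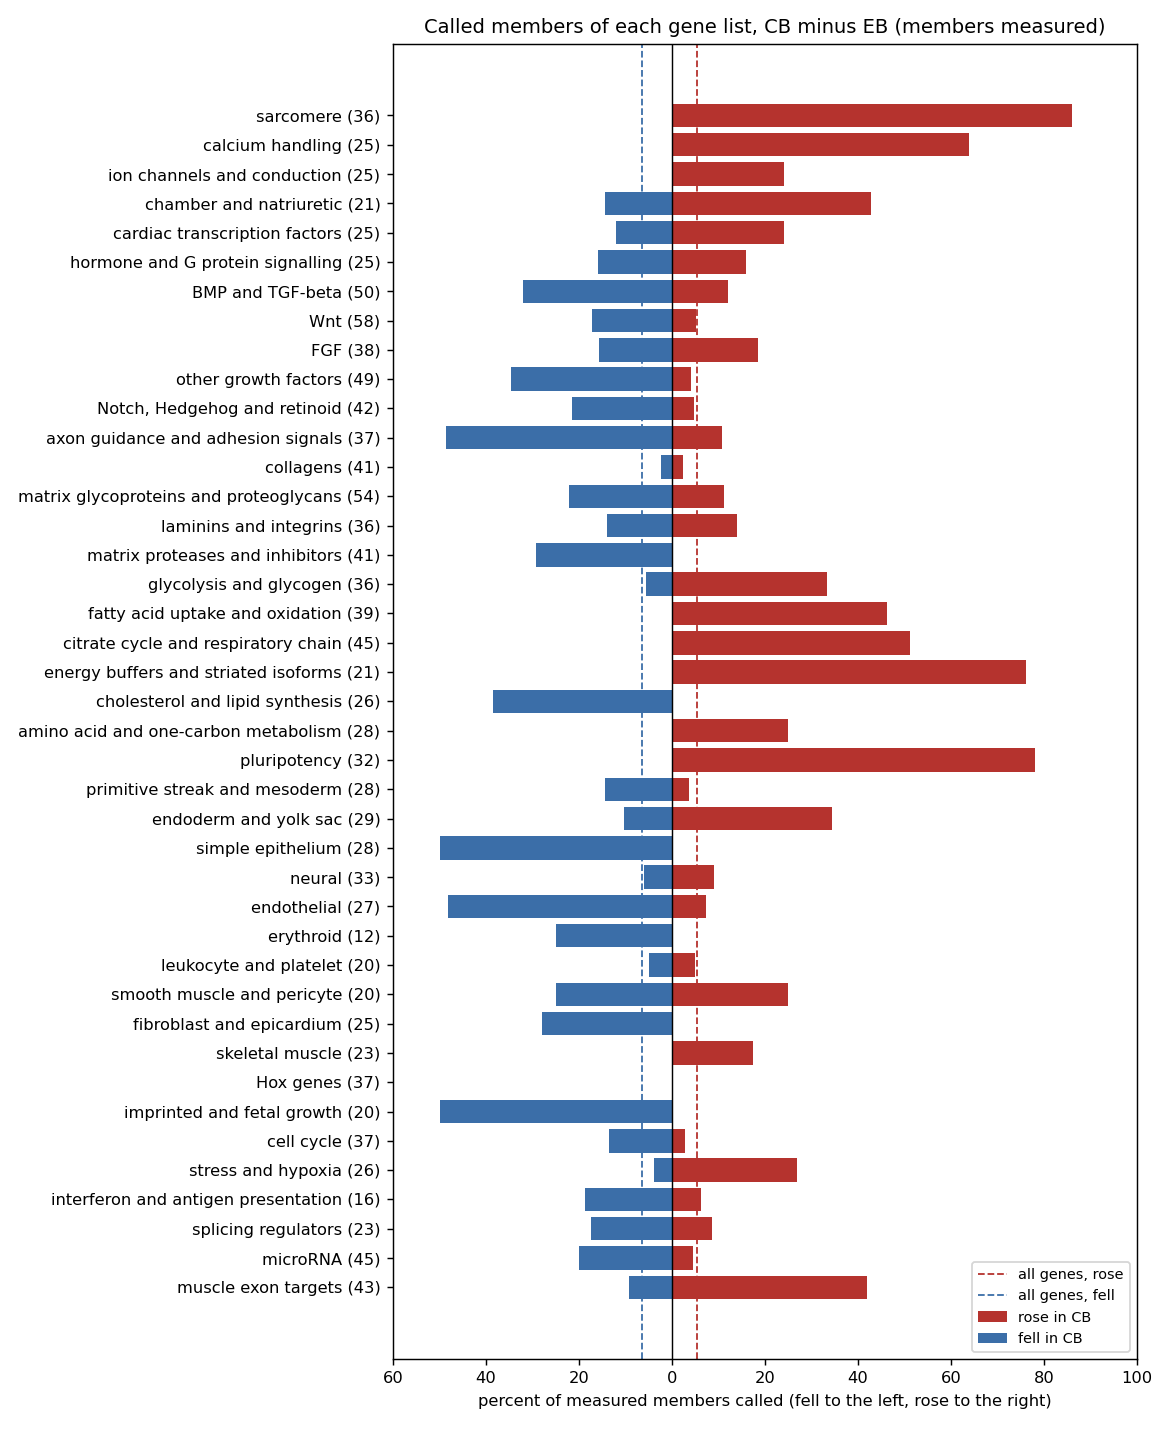
Percent of the measured members of each gene list that were called in CB minus EB, with rises to the right in red and falls to the left in blue, and the number measured in brackets. Dashed lines mark the 5.45% of all genes that rose and the 6.43% that fell. Many lists exceed them, among them sarcomere, pluripotency, energy buffer and calcium handling genes on the right. On the left they include simple epithelium, imprinted and fetal growth, guidance and endothelial genes.

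In the BMP and TGF-beta family Nodal, its co-receptor and its inhibitor rose, and the BMP-responsive genes Id1 and Id3 fell. Of 50 genes, 6 (12%) rose and 16 (32.0%) fell, with a median of -0.42. The count of falls was 10 without CB replicate 1 and 8 without CB replicate 2. Nodal, the ligand that maintains early epiblast and induces mesoderm, measured 8.74 and 9.67 in CB, and 6.92 and 7.00 in EB, and rose by 2.24 ± 0.34. Tdgf1, its co-receptor Cripto, measured 11.40 and 11.47 in CB, and 8.14 and 9.08 in EB. Lefty1, a secreted inhibitor of Nodal, rose by 2.21 ± 0.25, and Gdf3, a related ligand, by 2.71 ± 0.21. These 4 genes are also members of the pluripotency list, of which 25 of 32 members rose in CB, and the part of that list's cells in their rise was not tested. Id1, an inhibitor of differentiation induced by BMP, measured 7.53 and 7.33 in CB, and 9.36 and 9.11 in EB, and fell by 1.80 ± 0.25. Id3 fell by 1.47 ± 0.28. Tgfb2, a ligand of the valve-forming cushions, measured 6.56 and 5.98 in CB, and 8.34 and 7.35 in EB, and Tgfbr3, its co-receptor betaglycan, fell by 1.48 ± 0.21. Bmp4 measured 8.06 and 8.07 in CB, and 9.47 and 7.74 in EB, where the EB arrays lay on either side of both CB arrays, and it was not called. Bmp5 measured 7.73 and 6.51 in CB, and 9.41 and 8.75 in EB, and its fall was not called without CB replicate 2 (limma adjusted p = 0.102) or EB replicate 1 (0.0680).

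Several Wnt receptors and secreted inhibitors fell. Of 58 genes of the pathway, 3 (5.17%) rose and 10 (17.2%) fell, with a median of -0.10, and the falls numbered 6 without CB replicate 1 and 5 without CB replicate 2. Frzb, a secreted Frizzled-like inhibitor, measured 5.65 and 4.72 in CB, and 8.34 and 8.53 in EB, and its fall by 3.25 ± 0.26 (limma adjusted p = 5.7e-06) was the largest of the list. Dkk1, an inhibitor that binds the Wnt co-receptor and is used by anterior mesoderm, measured 5.79 and 5.89 in CB, and 7.71 and 7.22 in EB. The receptors Fzd2 and Fzd4 fell by 1.77 ± 0.29 and 1.45 ± 0.26. Among ligands, Wnt5a, which acts without beta-catenin, measured 6.46 and 6.14 in CB, and 9.14 and 7.32 in EB. Its fall of 1.93 ± 0.40 was not called without CB replicate 2 (limma adjusted p = 0.0650) or with the 4 arrays alone (0.0578). Wnt11, another ligand of that kind and one tied to cardiac specification, measured 5.72 and 5.58 in CB, and 5.98 and 5.56 in EB, and was not called. Wif1, an inhibitor that binds Wnt ligands, measured 6.67 and 6.71 in CB, and 4.88 and 5.13 in EB, and rose by 1.68 ± 0.22. Wnt8a, a ligand of the primitive streak, rose by 1.07 ± 0.20. Axin2, a feedback target of beta-catenin, measured 5.89 and 6.22 in CB, and 6.60 and 5.83 in EB, with the groups overlapping.

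FGF genes were called in both directions, 7 of 38 (18.4%) up and 6 (15.8%) down, with a median of 0.02. The falls numbered 3 without CB replicate 1 and 3 without CB replicate 2. Fgf4, the FGF of ES cells and epiblast, measured 8.09 and 8.13 in CB, and 5.88 and 6.19 in EB, and rose by 2.08 ± 0.24. The feedback inhibitor Spry4 measured 8.62 and 9.14 in CB, and 7.14 and 7.40 in EB, and the FGF-responsive factor Etv4 rose by 1.06 ± 0.20. Etv5, a close relative of Etv4, rose by 1.44 ± 0.25, which the median of its exon-level probe sets did not call (limma adjusted p = 0.0994). Fgf1, a ligand without a secretion signal that is present in heart muscle, rose by 1.37 ± 0.19. Fgf10, a ligand of the second heart field, measured 4.98 and 5.19 in CB, and 6.17 and 6.50 in EB, and fell by 1.25 ± 0.19. Fgfr2, the receptor of Fgf10 in epithelium, fell by 1.62 ± 0.21, and Flrt3, a membrane partner of FGF receptors, by 1.72 ± 0.35. Fgf8, another second heart field ligand, measured 7.01 and 6.72 in CB, and 6.97 and 8.22 in EB, and was not called, though the median of its exon-level probe sets was called as a fall (limma adjusted p = 0.0319).

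Among the other growth factors and their receptors, 2 of 49 (4.08%) rose and 17 (34.7%) fell, with a median of -0.57. Cxcr4, the receptor that guides migrating mesoderm and endoderm, measured 5.47 and 5.71 in CB, and 8.93 and 10.08 in EB. Its fall by 3.92 ± 0.29 (limma adjusted p = 3.5e-06) was among the 12 largest of called genes without overlapping arrays. Pdgfrb, the PDGF receptor of pericytes, measured 5.45 and 5.55 in CB, and 8.41 and 7.73 in EB, and fell by 2.57 ± 0.23. Pgf, a vascular ligand of the VEGF family, measured 5.42 and 5.10 in CB, and 7.30 and 8.55 in EB. Igfbp4, an IGF-binding protein that also inhibits Wnt signals, fell by 2.75 ± 0.29. The other binding proteins Igfbp1 and Igfbp7 were the 2 that rose, by 2.41 ± 0.25 and 2.23 ± 0.17. Igfbp1 is best known from liver and decidua, and measured 7.55 and 6.97 in CB, and 4.73 and 4.97 in EB.

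Retinoid and Hedgehog genes fell more often than they rose. Of 42 Notch, Hedgehog and retinoid genes, 2 (4.76%) rose and 9 (21.4%) fell, with a median of -0.25. Rises numbered 1 without CB replicate 2 or EB replicate 2, and 4 with only the 6 culture arrays or with the replicate number as a block in the fit (the replicate block). Cyp26a1, the enzyme that degrades retinoic acid and is itself switched on by it, measured 4.40 and 5.36 in CB, and 7.65 and 9.36 in EB. It fell by 3.62 ± 0.44 (limma adjusted p = 0.000193). Crabp2, which carries retinoic acid to its receptors, measured 6.05 and 6.03 in CB, and 7.18 and 7.87 in EB, and fell by 1.49 ± 0.25. The receptor Rarg measured 8.24 and 8.72 in CB, and 7.48 and 6.89 in EB, and rose by 1.30 ± 0.23. Ptch1, the Hedgehog receptor and a target of the pathway, measured 7.07 and 6.95 in CB, and 9.86 and 8.59 in EB. It fell by 2.22 ± 0.31, beside Gli3, the pathway's transcription factor, by 1.46 ± 0.19, and its transducer Smo, by 1.36 ± 0.18. Jag2, a Notch ligand, was the other riser, by 0.89 ± 0.20, not called without CB replicate 2 (limma adjusted p = 0.101) or EB replicate 2 (0.0691). Notch1 and the ligand Dll1 were not called (limma adjusted p = 0.466 for Notch1 and 0.0688 for Dll1).

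The Cyp26a1 promoter is shown because it holds the direct repeat of a retinoic acid receptor site, TGAACTNNNNNTGAACT, in capitals. The window (chr19:37697558-37697807, plus strand, GRCm38.p6, RefSeq) has it 32 to 16 bases before the start. The same letters occurred in 7 of all 32851 windows (0.0213%), and in no other of the 34 genes of this list with a window.
Cyp26a1 promoter: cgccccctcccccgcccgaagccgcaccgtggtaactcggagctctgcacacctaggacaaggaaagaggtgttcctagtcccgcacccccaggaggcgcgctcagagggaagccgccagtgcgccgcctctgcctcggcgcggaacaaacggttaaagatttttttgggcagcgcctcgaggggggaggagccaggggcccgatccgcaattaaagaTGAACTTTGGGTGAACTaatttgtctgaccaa

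Guidance and adhesion genes fell in 18 of 37 cases (48.6%) and rose in 4 (10.8%), with a median of -0.87. The falls numbered 11 without CB replicate 2 and the rises 2 without CB replicate 1. Cdh11, a cadherin of mesenchyme, measured 5.80 and 7.34 in CB, and 10.06 and 9.54 in EB, and fell by 3.23 ± 0.45. Slit2, a repellent ligand, fell by 2.42 ± 0.35, and Plxnd1, a semaphorin receptor of endothelium, measured 5.47 and 5.51 in CB, and 7.33 and 8.14 in EB. Cdh13, an anchored cadherin of heart and vessels, measured 8.25 and 7.49 in CB, and 5.52 and 5.33 in EB, and rose by 2.44 ± 0.22. Epha2, a receptor of early embryo and epithelium, rose by 1.55 ± 0.18. In the same arrays, mean levels of the endothelial list were 5.75 and 5.76 in CB, and 6.52 and 7.18 in EB, and those of the fibroblast and epicardium list 5.72 and 5.80 in CB, and 6.77 and 6.25 in EB. Their part in these falls was not tested.

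**Figure D3:**
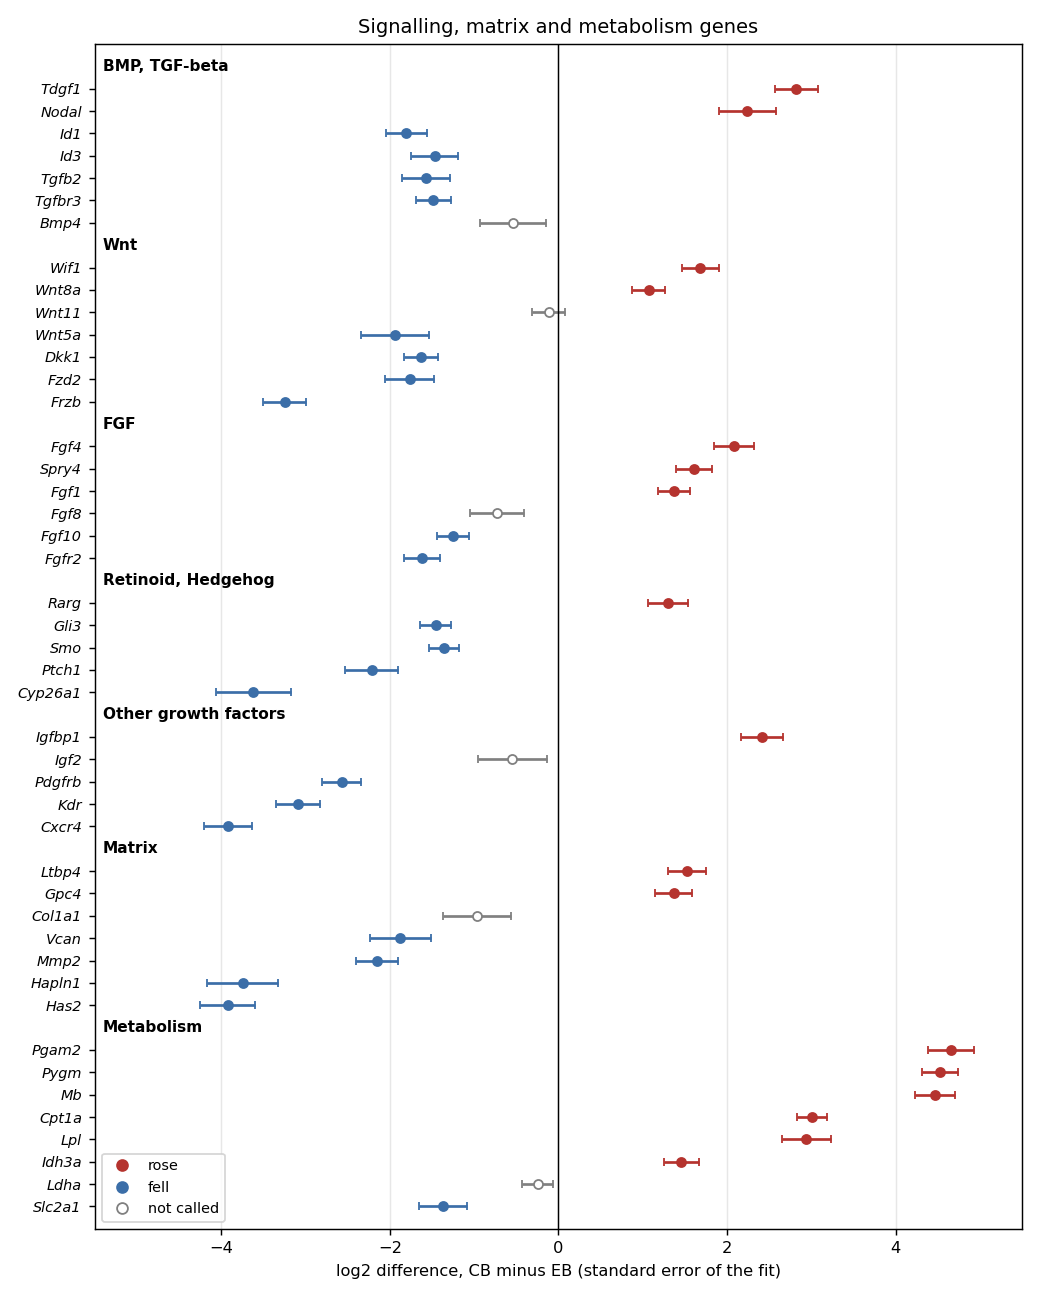
Log2 difference, CB minus EB, of signalling, matrix and metabolism genes (horizontal axis) with the standard error of the fit as bars, red for rises, blue for falls and open grey for genes not called. Cxcr4, Has2, Hapln1 and Cyp26a1 lie furthest to the left and Pgam2, Pygm and Mb furthest to the right.

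Has2, Hapln1 and Vcan, whose products build the hyaluronan matrix of the early heart, fell. Has2, the hyaluronan synthase required for the cardiac jelly, measured 6.31 and 6.87 in CB, and 9.96 and 11.06 in EB. It fell by 3.92 ± 0.33 (limma adjusted p = 8.7e-06), and Hapln1, which links hyaluronan to proteoglycans, measured 3.87 and 3.57 in CB, and 6.54 and 8.39 in EB. Vcan, the proteoglycan versican that hyaluronan binds, measured 8.49 and 8.46 in CB, and 10.38 and 10.34 in EB, with the arrays of each group close together, and fell by 1.88 ± 0.36. Across 54 matrix glycoproteins and proteoglycans, 6 (11.1%) rose and 12 (22.2%) fell, with a median of -0.21. Rises numbered 2 without CB replicate 1, 3 without EB replicate 2 and 3 with only the 4 CB and EB arrays. The cell surface glypicans fell and rose: Gpc3 fell by 2.27 ± 0.24, Gpc6 fell by 2.59 ± 0.22, and Gpc4 measured 8.25 and 8.07 in CB, and 6.74 and 6.84 in EB, and rose by 1.37 ± 0.22. Ltbp4, which holds latent TGF-beta in elastic fibres, rose by 1.52 ± 0.22. Fn1, fibronectin, measured 9.99 and 10.13 in CB, and 11.89 and 10.67 in EB. Its fall of 1.22 ± 0.30 was called (limma adjusted p = 0.0204), but not without EB replicate 1 (0.138), CB replicate 1 (0.127) or CB replicate 2 (0.0774), nor with the 4 arrays alone (0.0802). Sparc, an abundant matrix-binding protein, measured 11.11 and 11.06 in CB, and 11.39 and 10.76 in EB, on both sides of each other.

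Of 41 collagens, 1 (2.44%) rose and 1 fell, with a median of 0.04. The rise, of Col4a5, was not called without CB replicate 1 (limma adjusted p = 0.124) or EB replicate 2 (0.0928), with the 4 arrays alone or with the median of exon-level probe sets. Falls numbered 4 without EB replicate 1, 5 without EB replicate 2, 3 without 1 P1 array or with the median of exon-level probe sets, and 2 without 1 adult array, with the 6 culture arrays, with the replicate block or among genes at or above the median level. Col1a1, the main fibrillar collagen of fibroblasts, measured 6.59 and 6.36 in CB, and 8.34 and 6.54 in EB, and Col3a1 measured 6.75 and 6.95 in CB, and 9.46 and 6.67 in EB. In both, EB replicate 1 was high and EB replicate 2 was close to the CB arrays. Col4a1, of the basement membrane, measured 8.01 and 7.96 in CB, and 8.55 and 7.82 in EB. Col12a1, which decorates collagen fibrils, fell by 1.03 ± 0.19, and Col4a5 measured 7.44 and 6.89 in CB, and 6.44 and 5.96 in EB.

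Among 36 laminins, integrins and their partners 5 (13.9%) rose and 5 fell, and each count dropped to 2 without CB replicate 1. Falls also numbered 2 without CB replicate 2 or EB replicate 1 and 1 with the median of exon-level probe sets, and rises 2 with the 4 arrays alone and 8 without P1 replicate 1 or P1 replicate 2. With 3 falls stood the fits without 1 ES, E17.5 or adult array, with the 4 arrays alone, with the 6 culture arrays and with quantile normalization. Itgb1bp2, the integrin-binding muscle protein melusin, measured 7.93 and 7.15 in CB, and 5.35 and 5.36 in EB, and rose by 2.18 ± 0.24. Sgca, a sarcoglycan of the dystrophin complex, rose by 1.47 ± 0.25. Of 41 matrix proteases and inhibitors, none rose and 12 (29.3%) fell, 6 without CB replicate 1 and 7 without CB replicate 2. Mmp2, a gelatinase, measured 7.26 and 7.95 in CB, and 10.10 and 9.42 in EB, and fell by 2.15 ± 0.25. The plasminogen activators Plat and Plau fell by 2.10 ± 0.27 and 1.23 ± 0.19, and Adam12, a protease of muscle and mesenchyme, by 1.72 ± 0.17.

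Fuel genes rose more often than they fell, led by muscle isoforms. Of 21 energy buffer and striated muscle isoform genes, 16 (76.2%) rose and none fell, with a median of 1.56. Cox8b and Cox6a2, the muscle subunits of cytochrome oxidase, measured 9.16 and 8.02 (Cox8b) and 9.62 and 8.90 (Cox6a2) in CB, against 4.74 and 4.68 (Cox8b) and 5.45 and 6.18 (Cox6a2) in EB. Ckm, the muscle creatine kinase, measured 8.35 and 7.24 in CB, and 5.47 and 5.82 in EB, and Hspb7, a small heat shock protein of the heart, rose by 3.46 ± 0.27. Of 36 glycolysis and glycogen genes, 12 (33.3%) rose and 2 (5.56%) fell, with a median of 0.20. Pgam2 measured 10.52 and 9.59 in CB, and 5.66 and 5.15 in EB, and rose by 4.65 ± 0.28. Pygm, the muscle glycogen phosphorylase, measured 10.55 and 9.79 in CB, and 5.59 and 5.71 in EB, and Ppp1r3c, which targets a phosphatase to glycogen, rose by 2.95 ± 0.22. Pdk2 and Pdk4, kinases that close pyruvate dehydrogenase to glucose carbon, rose by 2.31 ± 0.23 and 1.41 ± 0.21. Ldha, the lactate dehydrogenase of glycolytic cells, measured 12.11 and 11.74 in CB, and 12 and 12.33 in EB, and Hk2, a hexokinase of muscle and dividing cells, 9.16 and 9.09 in CB, and 8.92 and 9.35 in EB, both overlapping. The 2 falls were of transporters, and neither was called without CB replicate 1. Slc2a1, the glucose transporter of dividing cells, measured 10.83 and 10.90 in CB, and 12.58 and 11.88 in EB (limma adjusted p = 0.00712, 0.0573 without CB replicate 1 and 0.0663 without EB replicate 1). The lactate transporter Slc16a1 measured 10.26 and 10.04 in CB, and 12.14 and 10.86 in EB (limma adjusted p = 0.0129, and 0.0542 to 0.0934 without CB replicate 1, CB replicate 2 or EB replicate 1, and 0.0691 with the 4 arrays alone). Slc2a4, the insulin-responsive transporter of muscle, measured 8.31 and 7.79 in CB, and 7.44 and 7.17 in EB, and missed the threshold (0.0551).

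Fatty acid genes rose in 18 of 39 cases (46.2%) and none fell, with a median of 0.65. Without CB replicate 2, without 1 P1 array or among genes at or above the median level, 1 fell. Ppargc1a, a coactivator that drives mitochondrial biogenesis, measured 6.96 and 6.31 in CB, and 3.92 and 4.13 in EB, and rose by 2.61 ± 0.32. Fabp3, the heart's fatty acid binding protein, measured 9.69 and 9.59 in CB, and 7.31 and 7.08 in EB. Cd36, a fatty acid importer, measured 8.40 and 7.37 in CB, and 4.12 and 6.01 in EB, and rose by 2.82 ± 0.50. Of 45 citrate cycle and respiratory chain genes, 23 (51.1%) rose and none fell, with a median of 0.65. That count was 4 without CB replicate 1, 13 without EB replicate 1, 14 without EB replicate 2, 13 with the 4 arrays alone or the median of exon-level probe sets, and 35 without P1 replicate 1 or P1 replicate 2. Idh3a and Ogdh, both of the citrate cycle, rose by 1.46 ± 0.21 and 1.33 ± 0.21, and Cyc1, a subunit of complex III, by 1.00 ± 0.17.

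Of 26 cholesterol and lipid synthesis genes, none rose and 10 (38.5%) fell, with a median of -0.79. The falls numbered 1 without CB replicate 2, 3 without EB replicate 1, and 5 with the median of exon-level probe sets, and without EB replicate 1, 1 gene rose. Sc5d, a late enzyme of cholesterol synthesis, measured 8.80 and 8.44 in CB, and 10.09 and 9.50 in EB, and fell by 1.17 ± 0.21. Hmgcs1, an early one, measured 10.42 and 10.0 in CB, and 11.59 and 11.17 in EB, and was not called without CB replicate 2 (limma adjusted p = 0.185) or EB replicate 1 (0.152), nor with the median of exon-level probe sets (0.222). In amino acid and one-carbon metabolism 7 of 28 genes (25.0%) rose, 4 without CB replicate 2, and none fell, or 1 without EB replicate 1. Mean levels of that list were 8.13 and 8.33 in CB, and 7.88 and 7.77 in EB. They were 8.95 and 8.76 in ES cells and 6.18 to 6.74 in the whole hearts. Bcat1, which starts the breakdown of branched-chain amino acids, measured 9.95 and 10.29 in CB, and 8.08 and 7.66 in EB. Slc7a3, a cationic amino acid transporter, rose by 2.22 ± 0.19, and Cth and Asns, enzymes of cysteine and asparagine synthesis, by 1.35 ± 0.20 and 1.23 ± 0.22.

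**Figure D4:**
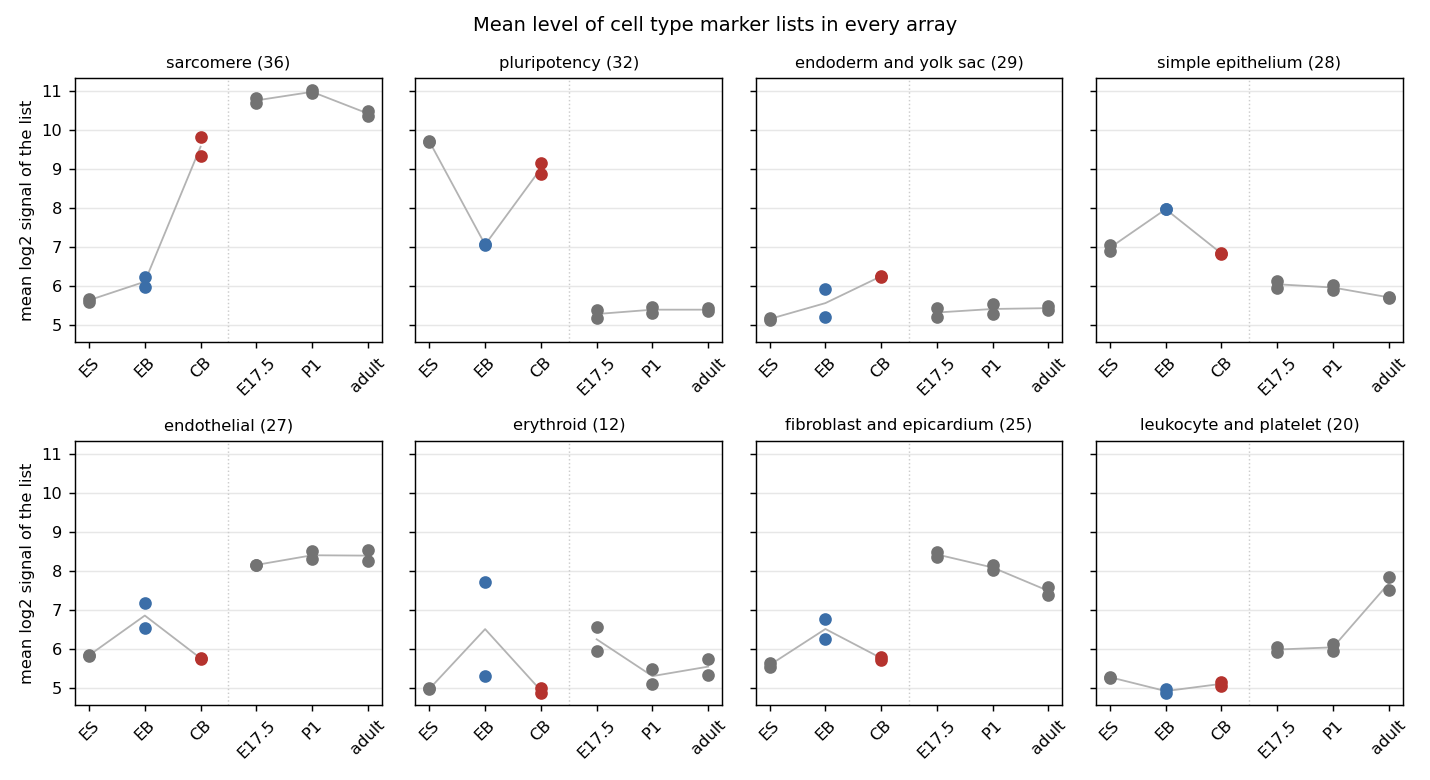
Mean log2 signal of 8 marker lists in every array, in the order of the cultures (ES, EB, CB) and of the hearts (E17.5, P1, adult), with CB in red, EB in blue, the others in grey, and a line through the means. The pluripotency list lies near 9 in CB, near 7 in EB and above 9.6 in ES cells, and the erythroid list is high in 1 EB array only. Levels of different lists cannot be set against each other.

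Pluripotency genes were higher in CB than in EB. Of 32 markers, 25 (78.1%) rose and none fell, with a median of 2.01. The list's mean level was 8.87 and 9.16 in CB and 7.08 and 7.05 in EB, beside 9.70 and 9.73 in ES cells. Dnmt3l, a cofactor of DNA methylation in germ cells and ES cells, measured 10.79 and 11.11 in CB, and 6.59 and 6.74 in EB, and 11 on average in ES cells. Dppa2, a chromatin factor of the early embryo, measured 10.36 and 11.08 in CB, and 6.90 and 6.76 in EB. Fbxo15, a gene of ES cells and embryo, rose by 3.90 ± 0.40, Nr0b1, a nuclear receptor of the ES cell network, by 3.49 ± 0.22, and Utf1, a chromatin factor of ES cells, by 3.01 ± 0.22. Klf4, a factor of the naive state, measured 7.00 and 7.36 in CB, and 6.49 and 6.53 in EB, and was not called. The list and the sarcomere list were both high in the CB arrays, and which cells held either RNA was not measured. Of 28 markers of the primitive streak and early mesoderm, 1 (3.57%) rose and 4 (14.3%) fell. Falls numbered 7 without EB replicate 1, 2 without CB replicate 1 or 1 ES or E17.5 array, and 1 without CB replicate 2, with the 4 arrays alone or with the 6 culture arrays. Rises numbered 2 without 1 P1 array, with the 6 culture arrays, with the replicate block or among genes at or above the median level. Tcf15, a factor of somites and epiblast, was the riser, by 2.09 ± 0.20. Snai2, a repressor active where cells leave an epithelium, measured 4.64 and 5.54 in CB, and 8.41 and 6.87 in EB, and fell by 2.55 ± 0.42. Eomes, Mixl1 and Mesp1, which mark the streak and nascent mesoderm, were not called.

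Of 29 endoderm and yolk sac genes, 10 (34.5%) rose and 3 (10.3%) fell, with a median of 0.37. The falls numbered 8 without EB replicate 2 and 1 without CB replicate 2, with the 4 arrays alone or with the 6 culture arrays. Trf, the iron carrier transferrin, measured 8.88 and 8.73 in CB, and 5.09 and 5.05 in EB, and rose by 3.74 ± 0.16. Ahsg, the liver glycoprotein fetuin-A, measured 7.66 and 7.51 in CB, and 3.74 and 4.05 in EB, and Fgb, fibrinogen beta, rose by 2.20 ± 0.35. Ttr, a thyroxine carrier of yolk sac and liver, measured 7.41 and 7.68 in CB, and 10.44 and 5.87 in EB, with the CB arrays between the EB arrays. Sox17, a factor of definitive endoderm and of some endothelium, measured 5.22 and 5.17 in CB, and 7.70 and 6.93 in EB, and fell by 2.12 ± 0.25.

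Epithelial, endothelial and mesenchymal markers fell more often than they rose. Of 28 genes of simple epithelium, none rose and 14 (50%) fell, with a median of -0.71. Krt8, a keratin of simple epithelium, measured 8.17 and 8.42 in CB, and 12.27 and 11.85 in EB, and fell by 3.76 ± 0.18. Krt19 and the tight junction gene Cldn7 fell by 3.83 ± 0.36 and 2.74 ± 0.20, and Esrp1, a splicing regulator of epithelium, by 1.84 ± 0.18. Epcam, an adhesion molecule of both epithelium and ES cells, measured 7.68 and 8.66 in CB, and 9.18 and 8.91 in EB, and was not called. Of 27 endothelial genes, 2 (7.41%) rose and 13 (48.1%) fell, with a median of -0.85. Cdh5, the cadherin of endothelium, measured 4.90 and 4.71 in CB, and 6.87 and 7.82 in EB, and Ramp2, a partner of the adrenomedullin receptor, 5.24 and 5.23 in CB, and 7.98 and 8.84 in EB. Emcn, a sialomucin of veins and capillaries, measured 3.47 and 3.44 in CB, and 5.14 and 8.02 in EB, and fell by 3.12 ± 0.62. Pecam1, an adhesion molecule of endothelium that mouse ES cells also make, measured 7.53 and 8.30 in CB, and 6.63 and 6.31 in EB, and rose by 1.44 ± 0.26. The other endothelial rise, of Robo4, was not called without CB replicate 1, CB replicate 2 or EB replicate 1 (limma adjusted p = 0.0556 to 0.0945).

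Of 25 fibroblast and epicardium genes, none rose and 7 (28.0%) fell, with a median of -0.97. Falls numbered 3 without CB replicate 1 and without CB replicate 2 and 12 without EB replicate 2, and without 1 P1 array 1 gene rose. Vim, the intermediate filament of mesenchyme, measured 10.87 and 10.86 in CB, and 12.42 and 12.28 in EB, and Twist1, a factor of mesenchyme, fell by 1.55 ± 0.20. Postn, periostin of fibroblasts and valves, measured 5.12 and 5.08 in CB, and 8.77 and 6.72 in EB, and was not called without EB replicate 1 (limma adjusted p = 0.109), CB replicate 1 (0.0783) or CB replicate 2 (0.0743). Wt1, a factor of epicardium, measured 6.64 and 6.44 in CB, and 5.99 and 5.89 in EB, and was not called. Of 20 smooth muscle and pericyte genes 5 (25.0%) rose and 5 fell, and rises numbered 2 without CB replicate 1 and 3 without EB replicate 1, with the 4 arrays alone, among genes at or above the median level, or with the median of exon-level probe sets. Myl9, a regulatory light chain of smooth muscle and non-muscle myosin, measured 12.02 and 11.13 in CB, and 6.53 and 6.56 in EB, and rose by 5.03 ± 0.38. Acta2, the smooth muscle actin that early heart muscle also makes, measured 12.10 and 11.72 in CB, and 12.06 and 10.74 in EB, and Myh11, the myosin of mature smooth muscle, 5.76 and 5.66 in CB, and 5.30 and 5.39 in EB, and neither was called.

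Embryonic globins were far higher in 1 EB array than in the other. Hbb-bh1 measured 3.60 and 3.20 in CB, and 11.07 and 5.29 in EB, Hbb-y 4.09 and 4.27 in CB, and 11.32 and 5.88 in EB, and Hba-x 5.62 and 5.28 in CB, and 11.32 and 6.19 in EB. EB replicate 1 was the high array in each, and EB replicate 2 lay nearer to the CB arrays, above both of them. Hbb-bh1 and Hbb-y were called (limma adjusted p = 0.0205 and 0.0292). Neither was called without CB replicate 1 (0.0906 and 0.146) or CB replicate 2 (0.112 and 0.117), with the 4 arrays alone (0.101 and 0.105) or with the 6 culture arrays (0.0602 and 0.0634), nor Hbb-y without EB replicate 1 (0.0769), where Hbb-bh1 stayed called (0.000554). Of 12 erythroid genes 3 (25.0%) fell and none rose, and the falls numbered 0 without CB replicate 1 or CB replicate 2, with the 4 arrays alone or with the 6 culture arrays, and 8 without EB replicate 2 but only 1 without EB replicate 1. Of 20 leukocyte and platelet genes 1 (5%) rose and 1 fell. The fall was not called without CB replicate 1 or CB replicate 2, with the 4 arrays alone or with the median of exon-level probe sets, and rises numbered 2 without 1 P1 or adult array and with the 6 culture arrays. The riser, Laptm5, a lysosomal protein of blood cells, measured 7.63 and 7.95 in CB, and 5.93 and 5.31 in EB.

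Of 20 imprinted and fetal growth genes, none rose and 10 (50%) fell, with a median of -0.92. Hmga2, a chromatin protein of growing embryonic tissue, measured 6.96 and 7.05 in CB, and 9.88 and 9.10 in EB, and fell by 2.49 ± 0.26. Lin28b, which blocks let-7 processing, and Igf2bp3, an RNA-binding protein of fetal tissue, fell by 2.07 ± 0.21 and 2.10 ± 0.19. Nnat, an imprinted membrane protein, measured 5.90 and 6.32 in CB, and 9.61 and 10.39 in EB. Among the 12 largest falls of called genes without overlapping arrays, Cpm, a membrane carboxypeptidase, measured 4.27 and 4.65 in CB, and 9.58 and 7.66 in EB. Also among them, Zfp711, a zinc finger protein, fell by 3.88 ± 0.47. Fndc3c1 fell by 3.81 ± 0.23.

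The array also carries probes against microRNA hairpins, which read the primary transcript or hairpin and not the mature microRNA. Mature sequences (RefSeq, GRCm38.p6) are shown for hairpins whose signals are given below them, all of them called except Mir18, with the seed, bases 2 to 8, in capitals. Of the 45 members measured, 39 have a mature sequence in that table. The first 5 come from hairpins of 1 primary transcript within 721 bases of chromosome 14 (chr14:115043671-115044391, plus strand), so their signals are not independent. miR-17-5p and miR-20a-5p share a seed, and so do miR-19a-3p and miR-19b-3p. The next 4 lie in a cluster of chromosome 12, and miR-208a-3p lies in an intron of Myh6.
miR-17-5p: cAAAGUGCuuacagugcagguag
miR-20a-5p: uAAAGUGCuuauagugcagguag
miR-18a-5p: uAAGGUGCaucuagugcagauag
miR-19a-3p: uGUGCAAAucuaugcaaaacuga
miR-19b-3p: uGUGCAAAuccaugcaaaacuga
miR-127-3p: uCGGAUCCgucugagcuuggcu
miR-136-5p: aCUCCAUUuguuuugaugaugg
miR-370-3p: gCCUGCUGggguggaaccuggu
miR-541-5p: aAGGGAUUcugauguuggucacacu
miR-208a-3p: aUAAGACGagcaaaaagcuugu

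Of the 45 microRNA members, 2 (4.44%) rose and 9 (20%) fell, with a median of -0.18. Without CB replicate 1, 2 fell and none rose. Rises numbered 1 without CB replicate 2 or EB replicate 2, with the 4 arrays alone, with quantile normalization, and among genes at or above the median level. Mir19a measured 5.61 and 5.99 in CB, and 6.69 and 7.33 in EB, and fell by 1.21 ± 0.23, not called without CB replicate 1 (limma adjusted p = 0.0584). Mir19b-1 measured 5.83 and 6.42 in CB, and 7.00 and 7.67 in EB, and fell by 1.21 ± 0.30, not called without CB replicate 1 (limma adjusted p = 0.201) or EB replicate 2 (0.162). Mir17 measured 5.42 and 5.65 in CB, and 6.41 and 6.87 in EB, Mir20a 6.61 and 7.19 in CB, and 7.58 and 8.25 in EB, and Mir17 fell by 1.1 ± 0.23 and Mir20a fell by 1.02 ± 0.25. Leaving out either of 2 arrays ended both calls, with the highest limma adjusted p (0.0828 for Mir17 and 0.188 for Mir20a) without CB replicate 1. Mir18 measured 6.95 and 7.39 in CB, and 7.84 and 8.03 in EB, and was not called (0.145). Of the chromosome 12 cluster, Mir127 measured 5.60 and 5.51 in CB, and 7.40 and 6.42 in EB, and fell by 1.36 ± 0.27. Mir541 fell by 1.58 ± 0.31, not called without CB replicate 1 (limma adjusted p = 0.0572), Mir136 by 1.00 ± 0.21 and Mir370 by 0.76 ± 0.23, and the calls of Mir136 and Mir370 ended without EB replicate 1 (0.0789 and 0.322) among other arrays. Mir208a measured 6.41 and 5.99 in CB, and 3.92 and 4.06 in EB, and rose by 2.20 ± 0.44 beside its host gene Myh6 (12.36 and 11.95 in CB, 5.26 and 5.27 in EB). That call was lost without CB replicate 1 (limma adjusted p = 0.0632). The muscle hairpin Mir1a-1 measured 3.41 and 2.95 in CB, and 2.64 and 2.62 in EB, and was not called.

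At the exon level, each probe set was compared after its gene's signal in the same array had been subtracted, so that a change describes a part of a transcript relative to the whole. Of 94033 probe sets tested, 3 (0.00319%) were called, with an adjusted p below 0.05 and a size of 1 or more. They lie in Palld, an actin-bundling protein of Z-discs and stress fibres, and Mical2, an enzyme that oxidises actin. All 3 were under the median probe set level (6.67) in EB, and passed the filter on level only through CB, where they are high. Probe set 10578856 of Palld measured 10.52 and 9.35 in CB, and 2.42 and 3.69 in EB, and probe set 10578855 measured 10.45 and 9.64 in CB, and 5.18 and 5.63 in EB. Over the same arrays the Palld gene signal was 9.86 and 9.13 in CB, and 8.07 and 8.22 in EB. Relative to the gene these probe sets rose by 5.53 ± 0.39 and 3.29 ± 0.22, far more than the gene. Probe set 10556406 of Mical2 measured 8.49 and 8.18 in CB, and 2.62 and 2.25 in EB, and rose by 3.57 ± 0.30 relative to its gene, which itself rose by 2.33 ± 0.25. With the replicate block the Mical2 call was lost (limma adjusted p = 0.0522). With the prior variance estimated from the tested probe sets only, an alternative chosen after seeing the data, 40 probe sets (0.0425%) in 31 genes were called. Of them 6 lie in Myo18b, an unconventional myosin of striated muscle, and probe sets of 1 gene are not independent. These 6 were also under the median probe set level in EB and passed the filter only through CB. None of the 6 was called by diffSplice, another limma test. With 1 array left out of the main fit, the number of probe sets called was 37 without EB replicate 1 and 6 without 1 ES array. It was 2 without EB replicate 2 or 1 adult array, and 0 without CB replicate 1, CB replicate 2 or 1 E17.5 or P1 array. With the 6 culture arrays it was 0, and with diffSplice it was 250, Palld probe set 10578855 not among them (adjusted p = 0.107).

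Calls of probe sets in genes with known muscle exon switches depended on the test. Those given here, chosen after their values were seen, were not called relative to the gene signal in the main fit, but each was called by diffSplice. With the prior from the tested probe sets only, those of Capzb, Slc25a3, Pkm and Itga6 were called relative to the gene signal, and those of Tpm1 and Atp2a2 were not. The Capzb and Itga6 probe sets were also under the median probe set level in EB. Capzb, the capping protein of actin filaments, was level at the gene (9.96 in CB and 10.00 in EB), while its probe set 10509631 measured 10.26 and 9.14 in CB, and 5.25 and 6.03 in EB (limma adjusted p = 0.0632, and 1.5e-16 by diffSplice). Tpm1 makes several tropomyosins by exchanging exons. Its probe set 10594669 measured 6.94 and 6.65 in CB, and 10.39 and 10.19 in EB, and 10594663 measured 11.61 and 10.98 in CB, and 8.48 and 9.43 in EB, so that these parts of the gene lay on opposite sides (limma adjusted p = 0.252 for 10594669 and 0.718 for 10594663, and 5.5e-10 and 0.00106 by diffSplice). Slc25a3, the mitochondrial phosphate carrier, has a muscle exon and a general one, and its probe set 10371885 measured 11.98 and 11.94 in CB, and 9.66 and 9.33 in EB (0.0781, and 1.0e-06 by diffSplice). Pkm makes the muscle and the embryonic pyruvate kinase from alternative exons, and its probe set 10585938 measured 10.58 and 10.5 in CB, and 7.88 and 8.47 in EB (0.0692, and 0.0181 by diffSplice). Atp2a2, the calcium pump, has a probe set, 10533484, that measured 11.85 and 11.39 in CB, and 7.68 and 6.62 in EB (0.149, and 1.3e-06 by diffSplice). Itga6, a laminin receptor subunit, has a probe set, 10472844, that measured 9.01 and 8.68 in CB, and 3.65 and 3.76 in EB (0.0593, 0.0375 with the replicate block and 7.5e-07 by diffSplice). Which exon each probe set matches was not determined here. Of the 43 genes on a list of known muscle exon targets, 32 were tested with 717 probe sets, and 37 of these (5.16%), in 14 genes, had an unadjusted p under 0.01, beside 1.09% of all 94033 probe sets tested. The list was chosen with earlier results of these data known, and probe sets of 1 gene are not independent, so these shares are no test.

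**Figure D5:**
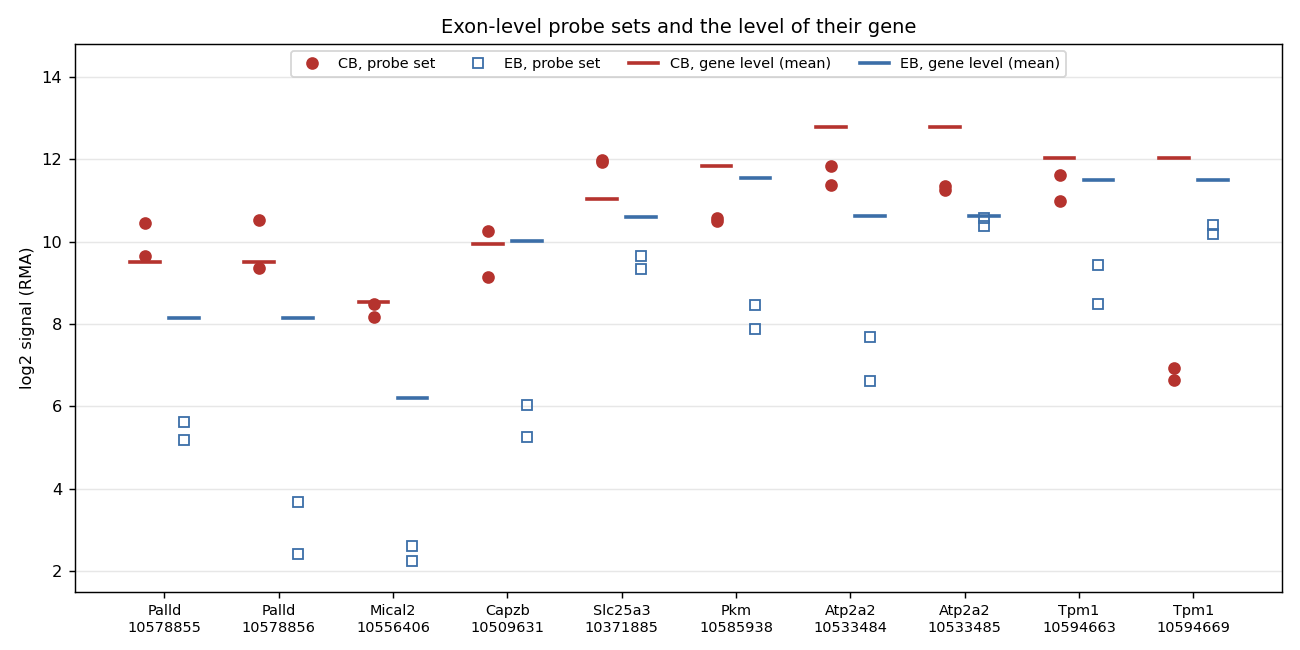
Log2 signal of 10 probe sets in every array, CB as filled circles left of EB as open squares, with short lines for the mean level of the gene in each group. The 2 Palld probe sets and the Mical2 probe set on the left were called in the main fit. The others were not called in that fit and were chosen after their values were seen.

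Splicing regulators were called in both directions, 2 of 23 (8.70%) up and 4 (17.4%) down. The falls numbered 1 without CB replicate 1, CB replicate 2 or EB replicate 2, and 2 without EB replicate 1, without 1 ES, E17.5 or adult array, with the 4 arrays alone, with quantile normalization, with the replicate block and with the median of exon-level probe sets. Rbm20, the regulator of titin exons, measured 8.45 and 7.88 in CB, and 6.39 and 6.18 in EB, and rose by 1.88 ± 0.21. Rbm24, a splicing activator of heart and muscle, measured 9.88 and 8.98 in CB, and 6.81 and 7.94 in EB, and rose by 2.05 ± 0.33.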

How the data were processed

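RNA of 12 samples was hybridised to mouse gene arrays and deposited at gene level and at exon level as log2 signals, made by the authors with RMA in Affymetrix Power Tools, per the submitters' processing notes; per the labels, RNA was extracted with TRIzol and depleted of ribosomal RNA. RMA sets each array to the same distribution, and array medians were 5.615 to 5.7608 (gene level) and 6.4044 to 6.5254 (exon level). Scan dates, tool versions and background calls were not used here, and 2 arrays per group limit the precision.

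Of 35556 transcript clusters, 21789 had 1 gene symbol, 1621 several and 12146 none in GEO's platform annotation. Those with 1 symbol were used, for 1015 genes with several clusters the one with the highest mean, leaving 19920 genes. limma 3.58.1 in R 4.3.3 fitted 6 group means to the 12 arrays with empirical Bayes variances, and p was adjusted by Benjamini and Hochberg over all genes. Exon-level tests used probe set minus gene signal, for genes with at least 4 probe sets. The gene had to be at or above the median gene level in both CB and EB. The probe set had to be at or above the median probe set level in at least 1 of them. Probe sets identical to their gene (218) were left out. Tables were made with Python 3.11.15 and pandas 2.3.3. The fits were also run on simulated data with independent noise for each gene or probe set. Such data cannot show the effect of a shared culture or batch.

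Named genes were the 12 largest rises and falls without overlapping arrays, up to 5 called members of each list in either direction, a fixed set chosen whatever its result, and called probe sets. Members that were not called are given as values. Not all named genes are described in the text, and of the fixed set the values of Myh7, Pou5f1, Kdr, Igf2 and Xist are not given there. The comparison, the lists and the rule were chosen with earlier results of these data known. The brachyury gene was not analysed here. The replicate numbers were not treated as pairs (correlation of deviations -0.05 between EB and CB, and over 0.1 in 2 of 15 pairs of groups). These correlations cannot exclude a shared culture or batch. Alternatives were other sets of arrays in the fit, a replicate block, quantile normalization, filters, an intensity trend, other summaries of a gene, and leaving out each array.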

Additional observations from a re-analysis of the deposited data

How the results depend on the processing

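The 251 called genes among the 261 named kept their direction under every alternative that measured them, and 176 of them stayed called without any 1 array. Of those not called, Nppb, Bmp10, Bmp4 and Wnt11 changed sign under at least 1 alternative. Of the called genes, 39 were not called with the median of exon-level probe sets as gene level (which measured 241 of them), 33 with only the 4 CB and EB arrays, 16 with the 6 culture arrays, 9 with quantile normalization and 1 with the mean of all transcript clusters. An intensity trend in the prior ended none, nor did testing only genes at or above the median level, which measured 238 of them. The genes that rose numbered 656 without CB replicate 1, and between 656 and 1336 with 1 array left out, the highest without a P1 array. The genes that fell numbered 777 with the median of exon-level probe sets, 561 without CB replicate 1 and 640 without CB replicate 2, and between 561 and 1890 with 1 array left out. With the replicate number as a block, 1030 genes rose, 1176 fell and 3 probe sets were called (both of Palld and Itga6 10472844, not the Mical2 one), and 246 of the 251 named called genes stayed called. The main fit did not treat the numbers as pairs, and the low correlation of deviations between EB and CB cannot exclude a pairing. At the exon level, 40 probe sets were called with the prior taken from the tested probe sets only (chosen after seeing the data), 0 with the 6 culture arrays, 133 with no filter on level, 0 among genes whose level changed by at most 1, and 250 with diffSplice, and between 0 and 37 with 1 array left out. The causes were not tested. Fewer arrays leave fewer degrees of freedom, and the counts moved in both directions when 1 array was left out. Where an array of a compared group was left out, the remaining one was assumed to vary like the other groups. Signals near the lowest values of the arrays carry no known distance to background.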

Other observations

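None of 37 Hox genes, which set position along the body axis, was called. Their mean level was 5.05 and 4.91 in CB, and 5.48 and 4.86 in EB, and 11 were higher by more than 1 in EB replicate 1 than in EB replicate 2. Without EB replicate 2, 10 were called as falls. Of 33 neural genes, 3 (9.09%) rose and 2 (6.06%) fell, 5 without EB replicate 1 and 1 among genes at or above the median level or with the median of exon-level probe sets. Stmn2, a tubulin-binding protein of growing neurons, measured 9.18 and 9.31 in CB, and 5.96 and 6.43 in EB, and Tubb3, a neuronal tubulin, 6.39 and 6.28 in CB, and 5.04 and 4.86 in EB. Nefm, a neurofilament, measured 4.16 and 4.10 in CB, and 4.99 and 5.39 in EB, and fell by 1.06 ± 0.19. Of 23 skeletal muscle genes, 4 (17.4%) rose and none fell, and Mylpf, a light chain of fast skeletal myosin, measured 7.04 and 7.40 in CB, and 4.87 and 4.72 in EB.

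Of 26 stress and hypoxia genes, 7 (26.9%) rose and 1 (3.85%) fell. Falls numbered 3 without EB replicate 1, 2 without 1 P1 array or with the 4 arrays alone, and 0 without EB replicate 2 or CB replicate 1 or with the median of exon-level probe sets. Hspb1, a small heat shock protein, measured 10.66 and 10.92 in CB, and 7.53 and 7.44 in EB, and rose by 3.30 ± 0.26. Hspa1a, an inducible chaperone, measured 7.29 and 8.46 in CB, and 5.89 and 5.97 in EB, and Nqo1, an antioxidant enzyme, 7.73 and 8.09 in CB, and 6.56 and 5.61 in EB. Of 37 cell cycle genes, 1 (2.70%) rose and 5 (13.5%) fell, with 1 to 8 falls when 1 array was left out, the fewest without CB replicate 2 or EB replicate 2. The S-phase cyclins moved apart: Ccne1 measured 9.32 and 9.40 in CB, and 8.30 and 8.37 in EB, and Ccne2 5.63 and 5.89 in CB, and 7.39 and 7.39 in EB. The rise of Ccne1 was not called with the median of exon-level probe sets (limma adjusted p = 0.0995). The proliferation marker Mki67 measured 8.17 and 7.84 in CB, and 9.28 and 9.33 in EB, and was not called without CB replicate 2 (0.117) or either EB array (0.0531 and 0.0632). Of 16 interferon and antigen presentation genes, 1 (6.25%) rose and 3 (18.8%) fell, with a median of 0.22. The falls numbered 1 without EB replicate 1, CB replicate 1 or CB replicate 2 or with the median of exon-level probe sets, and the rises 0 without EB replicate 2, CB replicate 1 or CB replicate 2. B2m, the light chain of class I antigen presentation, measured 8.46 and 8.96 in CB, and 10.61 and 9.80 in EB, and fell by 1.5 ± 0.26. None of the 7 sex-linked genes measured was called.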
